A study of Mus musculus with 16 samples.

Results

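Cadherins are calcium-dependent adhesion proteins that sit in the plasma membrane and bind the same or a similar cadherin on the neighbouring cell. Classical cadherins hold beta-catenin and p120-catenin on their cytoplasmic tail, and alpha-catenin links this complex to actin. In muscle precursors, M-cadherin and N-cadherin are the best known members and take part in the alignment of myoblasts before they fuse into myotubes. The genes described here were 9 cadherins: Cdh1, Cdh2, Cdh3, Cdh4, Cdh6, Cdh10, Cdh11, Cdh13 and Cdh15. They were found as the rows whose Ensembl gene ID carries one of these symbols in GENCODE, 9 of the 49585 genes in each of the tables of read counts. The set was chosen with measured values of these libraries in view, in particular the near absence of Cdh11 in AMPK-KO libraries, so the levels in AMPK-KO against WT are given as a description with no test.

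The libraries were RNA-seq of C2C12, an established mouse myoblast line, in 16 samples. WT cells and AMPK-KO cells, in which both catalytic subunits of AMP-activated protein kinase (Prkaa1 and Prkaa2) were disrupted with CRISPR/Cas9, were sampled as myoblasts in 10% FBS (d0) and after 8 days in 2% equine serum (d8), with 2 libraries in each of the 4 groups. The labels do not say which knockout line each AMPK-KO library came from. A second table held d0 myoblasts that all lacked AMPK and carried a FLAG-BirA and EGFP insertion at the N-terminus of Tet2 on both alleles, either with the wild-type serine (TET2-WT) or with a glutamate at that position (TET2-S97E). Each of these genotypes was given by 2 clones with 2 libraries each, so a genotype difference rests on 2 clones a side. The 8 WT and AMPK-KO libraries held 17883417 to 24663079 counts each, and those of the TET2 table held 19801909 to 37790358. The targeted genes were checked first. Prkaa1 was at 158 and 158 CPM (counts per 1000000 counts of the library, scaled by TMM) in WT d0, at 79.6 and 78.0 in AMPK-KO d0, at 126 and 125 in WT d8 and at 83.3 and 82.4 in AMPK-KO d8. Prkaa2 was scarce, with 35 and 33 counts in WT d0 against 4 and 9 in AMPK-KO d0, and 113 and 216 in WT d8 against 31 and 17 in AMPK-KO d8. In the second table Prkaa1 lay between 73.1 and 104 CPM in the 8 libraries. Prkaa2 there had 9 to 53 counts, with the highest levels, 1.63 and 1.73 CPM, in TET2-WT clone 2 replicate 2 and TET2-S97E clone 2 replicate 2, beside 1.69 and 1.79 CPM in the WT d0 libraries of the other table, which was normalized separately. In the first table both genes were lower in the AMPK-KO libraries than in the WT libraries of the same day, without overlap.

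Of the 9 cadherins, 4 were abundant in at least 1 group. These were Cdh15 (M-cadherin, the muscle cadherin), Cdh2 (N-cadherin, shared by muscle, neural and mesenchymal cells), Cdh13 (T-cadherin, which is held by a lipid anchor, has no cytoplasmic tail and binds adiponectin) and Cdh11 (OB-cadherin, of osteoblasts and mesenchymal cells). A filter on low counts was passed by 5 of the 9 in the WT and AMPK-KO table, these 4 and Cdh1, and by 3 of the 9 in the TET2 table, Cdh2, Cdh13 and Cdh15. Cdh1 and Cdh11 passed through the libraries in which they were high, so their passing says nothing of a difference. No test was made for Cdh3, Cdh4, Cdh6 and Cdh10.

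Cdh15 was the most abundant cadherin in each of the 16 libraries, and it is a muscle gene. E-boxes (CANNTG) are the short elements bound by basic helix-loop-helix factors such as MyoD. The RefSeq promoter of Cdh15 is shown because Cdh15 and Myod1 were both higher in 1 of the TET2-S97E clones, as given further on. Between the TET2-WT clones Myod1 was called and Cdh15 was not, and a link between the 2 genes was not tested. The window (GRCm38.p6, chr8:122848124-122848423, plus strand) runs from 250 bases before to 50 bases after the RefSeq start. GENCODE places the start of Cdh15 further upstream, at 122847966, so the whole window lies inside that gene model. Capitals mark every CANNTG, which reads the same on both strands.
Cdh15: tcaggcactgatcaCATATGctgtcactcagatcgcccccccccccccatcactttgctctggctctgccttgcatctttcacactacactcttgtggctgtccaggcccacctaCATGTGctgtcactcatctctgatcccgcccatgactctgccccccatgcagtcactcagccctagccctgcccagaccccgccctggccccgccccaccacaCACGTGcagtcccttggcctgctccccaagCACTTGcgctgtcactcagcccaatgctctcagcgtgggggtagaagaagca
The window held 4 matches, and 72.3% of the 32544 distinct RefSeq promoter sequences of this length held at least 1. The share with 4 or more was not counted, so whether 4 is usual is not known. The form CAGCTG was at 0 matches here and in 16.4% of the promoters. A match is a run of letters and not a binding site. Of the 9 cadherins, 3 were in the promoter table (Cdh6, Cdh10 and Cdh15).

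The levels of the 4 abundant cadherins were compared per length, as TPM (transcripts per 1000000, where each count is divided by the summed exon length of its gene). In WT d0 the order was Cdh15 with 428 and 586 TPM, Cdh2 with 76.7 and 71.2, Cdh13 with 48.6 and 23.7 and Cdh11 with 23.9 and 9.84. Cdh13 and Cdh11 overlapped by a narrow margin across the libraries, although Cdh13 was above Cdh11 within each, and the other neighbours did not overlap. In WT d8 Cdh13 stood above Cdh2, at 149 and 136 TPM against 107 and 99.7, and Cdh11 was at 39.3 and 73.4. In AMPK-KO d0 and d8 the order was Cdh15, Cdh2 and Cdh13 with no overlap between neighbours. In the TET2 table Cdh15 was again the first, and Cdh2 and Cdh13 overlapped in TET2-S97E clone 1 and in TET2-WT clone 2. The same order of these genes was found with TMM-scaled CPM per kilobase in every group.

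**Figure D1:**
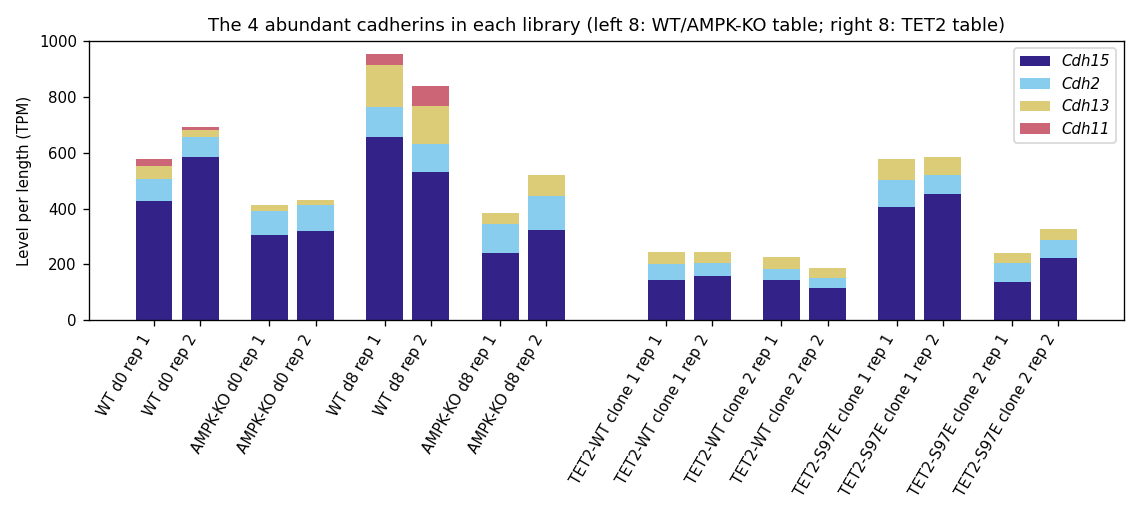
Level of Cdh15, Cdh2, Cdh13 and Cdh11 in each library, stacked, in TPM, with the 8 WT and AMPK-KO libraries on the left and the 8 libraries of the TET2 table on the right. Cdh15 makes up the largest part of every column, and Cdh11 is visible only in the 4 WT libraries. The tables were normalized separately.

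Summed over the 9 genes, cadherin transcripts came to 578 and 691 TPM in WT d0, 413 and 432 in AMPK-KO d0, 955 and 841 in WT d8 and 385 and 521 in AMPK-KO d8. Cdh15 alone gave 74.0% and 84.7% of this sum in WT d0, and its lowest share in the first table was 62.0%, in AMPK-KO d8 replicate 2. In the TET2 table the sum was 187 to 245 TPM in the 4 TET2-WT libraries, 579 and 584 in TET2-S97E clone 1 and 241 and 325 in TET2-S97E clone 2. Both clone 1 libraries of TET2-S97E stood above all the other libraries of that table. These sums are not compared across the tables, because the tables were normalized separately.

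Cdh11 had the largest difference between WT and AMPK-KO. It had 1206 and 467 counts in WT d0 (58.1 and 25.3 CPM) and 0 and 0 in AMPK-KO d0. At d8 the WT libraries held 1717 and 3794 counts (94.5 and 178 CPM), and the AMPK-KO libraries held 3 and 0. At d0 the level in AMPK-KO was at least 281-fold lower than in WT, taking 3 counts in each AMPK-KO library as the limit that a count of 0 allows, and this bound was 170 without WT d0 replicate 1. At d8 the ratio of WT to AMPK-KO was 2099, with an exact 95% counting interval from 718 to 10181 that covers counting error only. It rests on 3 counts in 1 library: without AMPK-KO d8 replicate 1 the group is at 0 and the level is at least 935-fold lower, without replicate 2 the ratio was 1141, and it was 1422 without WT d8 replicate 2. The 8 libraries of the TET2 table, all of AMPK-null cells, held 0, 0, 3 and 1 counts in TET2-WT and 2, 0, 0 and 3 in TET2-S97E, at or under that limit in each library, so no fold is given between genotypes. Cdh11 thus had at most 3 counts in each of the 12 libraries of cells without AMPK, and at least 467 in each of the 4 WT libraries. The paper grew its AMPK-KO cells from picked clones and made the TET2 knock-ins in AMPK-null cells. These 12 libraries therefore need not be independent knockouts. Loss of AMPK and descent from a picked clone cannot be told apart here, and their parts in the Cdh11 level were not tested. The gene lies on chromosome 8, 102632095 to 102785642, minus strand (GRCm38), and 4 annotated genes that overlap it had at most 1 count in any library.

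Cdh15 was lower in AMPK-KO at both times. It was at 380 and 550 CPM in WT d0 and at 295 and 295 in AMPK-KO d0, a log2 difference of -0.66 (SE 0.25), which was -0.36 without WT d0 replicate 2. At d8 it was at 578 and 469 CPM in WT and at 216 and 297 in AMPK-KO, a log2 difference of -1.03 (SE 0.25). The groups did not overlap on either day, and the WT d0 libraries differed more between themselves than the AMPK-KO d0 libraries did. The gene lies on chromosome 8, 122847966 to 122867397, plus strand (GRCm38), and a protein-coding model on the same strand, Gm20388, overlaps it and is listed at 0 in all 16 libraries.

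Cdh13 was also lower in AMPK-KO. The WT d0 libraries were at 149 and 77.0 CPM and the AMPK-KO d0 libraries at 70.6 and 56.0, a log2 difference of -0.84 (SE 0.38). Without WT d0 replicate 1 this became -0.29. At d8 Cdh13 was at 453 and 414 CPM in WT and at 127 and 238 in AMPK-KO, a log2 difference of -1.25 (SE 0.39). At d0 the lower WT library stood just above the AMPK-KO libraries, and at d8 the gap was wide. Cdh13 spans chromosome 8, 118283733 to 119324921, plus strand (GRCm38).

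Cdh2 went the other way by a small amount. It was at 169 and 166 CPM in WT d0 and at 209 and 215 in AMPK-KO d0, a log2 difference of 0.34 (SE 0.15). At d8 the values were 234 and 219 CPM in WT and 234 and 281 in AMPK-KO, a log2 difference of 0.19 (SE 0.15), which was 0.014 without AMPK-KO d8 replicate 2. The d0 groups did not overlap and the d8 groups met at one value. No AMPK-KO mean of N-cadherin was below the WT mean of its day, unlike for Cdh11, Cdh13 and Cdh15. Of all 14329 genes tested, the comparison of AMPK-KO with WT called 3.52% in d0 cells and 5.35% in d8 cells (edgeR's quasi-likelihood test, Benjamini-Hochberg adjusted p under 0.05, either direction); no count of cadherins is read against these shares, since the set was chosen on this contrast.

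**Figure D2:**
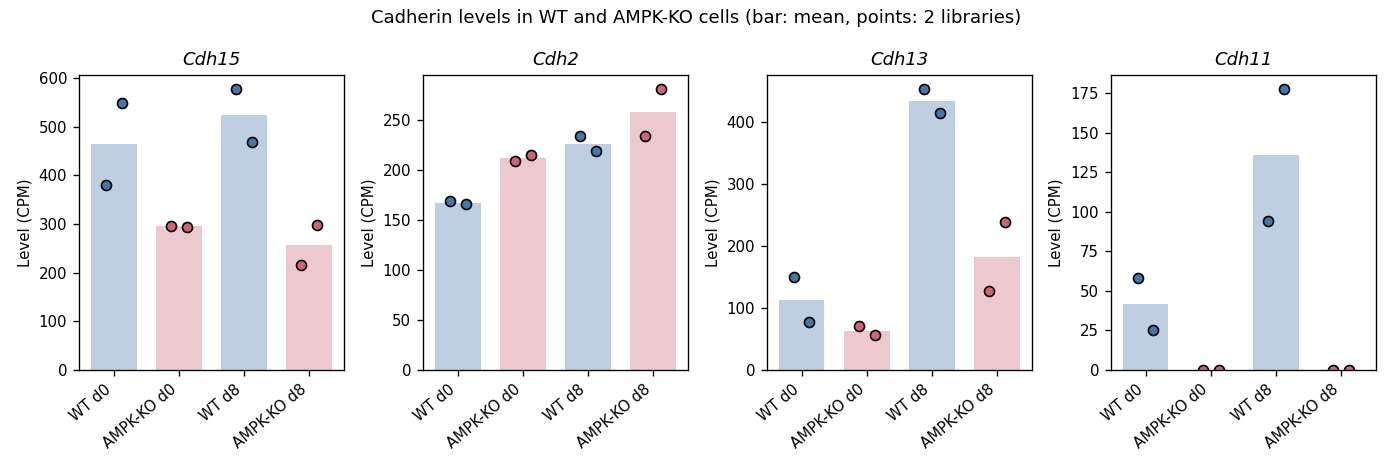
Level in CPM of the 4 abundant cadherins in the 4 groups of the first table, one panel a gene, with bars at the mean and a point for each of the 2 libraries. Cdh11 is at 0 or 0.122 CPM in the AMPK-KO libraries, Cdh15 and Cdh13 are lower in AMPK-KO than in WT on both days, and Cdh13 is highest in WT d8.

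Markers of muscle and of other cell types also differed between AMPK-KO and WT. Of the 10 muscle lineage markers, all tested, 4 were lower in AMPK-KO at d0 (beside 3.52% of all genes called) and 1 at d8 (beside 5.35%), and none was higher. Pax7, a transcription factor of satellite cells, had 167 and 169 counts in WT d0 and 0 and 1 in AMPK-KO d0, and 138 and 177 against 0 and 2 at d8. It is one of the 4 at d0 and the 1 at d8, and it passed the filter through the WT libraries, so its test is not read. Myog (log2 fold change -5.36, SE 0.68, adjusted p = 0.0116) and Myod1 (-3.29, SE 0.45, adjusted p = 0.0147) were lower at d0. Both calls were lost when either AMPK-KO d0 library was left out. Over all alternatives the log2 fold change was -5.62 to -5.04 for Myog and -3.75 to -2.84 for Myod1. The summed level of this list was 1961 and 2642 TPM in WT d0 against 1099 and 1523 in AMPK-KO d0. Of 9 tested fibroblast and mesenchymal markers, 1 was lower at d0 (Fap, 36 and 54 counts against 1 and 0) and 3 at d8, and none was higher. Fap, with 57 and 90 against 11 and 10 counts at d8, also passed the filter through WT and its test is not read. The others were Col1a1 (-4.11, SE 0.69, adjusted p = 0.0223) and Lum (-3.98, SE 0.82, adjusted p = 0.0401). Over all alternatives they were at -4.78 to -3.01 and at -4.52 to -3.04. The call of Lum was lost without any 1 of the 4 d8 libraries. That of Col1a1 was lost without WT d8 replicate 2, without AMPK-KO d8 replicate 1 and with only the 2 groups compared. The summed level of that list overlapped between the genotypes on both days, at 1710 and 2469 TPM in AMPK-KO d0 and 4990 and 3610 in AMPK-KO d8. Of 4 tested neural and glial markers 1 was lower on each day, Tubb3 (-4.15, SE 0.38, adjusted p = 0.00703 and -5.99, SE 0.44, adjusted p = 0.00329). The part of these differences in the cadherin values was not tested.

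Genes with the pattern most like Cdh11 were sought among the 14329 tested genes, by Pearson's r of log2 CPM over the 8 WT and AMPK-KO libraries. The nearest 3 were Ly6c2 (r = 0.997), Rgs17 (r = 0.996) and Smim20 (r = 0.996), each at 0 counts in all 4 AMPK-KO libraries. Ly6c2, a surface antigen gene, has a near-identical neighbour in its family, so its count is uncertain. For Cdh15 the nearest were Gtpbp10 (r = 0.969), Impdh1 (r = 0.969) and Dpp3 (r = 0.959). These r values are a description of 8 libraries of 2 genotypes and 2 days, and with a gene absent from all the libraries of one genotype a high r is set mostly by that split.

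The d8 against d0 comparisons asked how the cadherins moved during differentiation, which the choice of the set did not use. In WT, Cdh13 rose from 149 and 77.0 CPM to 453 and 414, and it was the only one of the 5 tested cadherins to pass (log2 fold change 1.94, SE 0.39, adjusted p = 0.0263), in a comparison in which 12.4% of all tested genes were called. Both d8 libraries stood above both d0 libraries. Its call was lost without WT d0 replicate 2 (adjusted p = 0.121), without WT d8 replicate 1 (0.105) or without WT d8 replicate 2 (0.131), where the fold change stayed between 1.55 and 1.97 on the log2 scale, and the adjusted p ranged from 9.6e-14 to 0.131 over all alternatives.

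Cdh11 was also higher in both WT d8 libraries than in both WT d0 libraries, with a log2 fold change of 1.71 (SE 0.52) and an adjusted p of 0.0836, which missed the threshold. DESeq2 gave 0.00512, without WT d0 replicate 1 the log2 fold change was 2.41 (0.0478), without WT d8 replicate 2 it was 1.15 (0.390), and the adjusted p ranged from 7.0e-10 to 0.390 over all alternatives. Cdh2 was at 234 and 219 CPM after 169 and 166 (log2 fold change 0.43, SE 0.15, adjusted p = 0.109). Cdh15 overlapped between the days, at 380 and 550 against 578 and 469 CPM (log2 fold change 0.17, SE 0.25, adjusted p = 0.683). M-cadherin thus had no detectable change at this depth and number of libraries.

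In AMPK-KO cells the comparison could be made for the 3 cadherins with a mean above 10 counts there, Cdh2, Cdh13 and Cdh15, and 0 of the 3 passed in edgeR, with 1 at an unadjusted p under 0.05 and 1 called by DESeq2, where 9.76% of all tested genes were called. Cdh13 was at 70.6 and 56.0 CPM at d0 and at 127 and 238 at d8, without overlap (log2 fold change 1.53, SE 0.39, adjusted p = 0.0533). With DESeq2 it was called (adjusted p = 0.00118), and without AMPK-KO d8 replicate 1 as well (0.0319). Without AMPK-KO d8 replicate 2 the log2 fold change was 0.98 (0.214), and without AMPK-KO d0 replicate 1 or replicate 2 the adjusted p was 0.215 or 0.201. Cdh2 was at 209 and 215 CPM and then at 234 and 281 (log2 fold change 0.28, SE 0.15, adjusted p = 0.274). Cdh15 was at 295 and 295 CPM and then at 216 and 297, so the days overlapped (log2 fold change -0.20, SE 0.25, adjusted p = 0.630). The AMPK-KO d8 libraries differed from each other in muscle markers, with summed levels of 2400 and 6798 TPM over the 10 listed genes. Replicate 1, with the lower sum, also had the lower Cdh13 and Cdh15. In the other 3 groups replicate 1 also had the lower sum, but the higher Cdh13. Its Cdh15 was lower in WT d0, level in AMPK-KO d0 and higher in WT d8 (578 against 469 CPM). A link between muscle markers and these cadherins was not tested.

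The difference between these d8 against d0 changes was tested itself. It was -0.41 (SE 0.54) on the log2 scale for Cdh13, -0.37 (SE 0.35) for Cdh15 and -0.15 (SE 0.22) for Cdh2, each with an adjusted p of 1.00. The test called 0% of the 14329 genes, with 729 at an unadjusted p under 0.05, and DESeq2 called 60. No difference between the genotypes in how these cadherins moved with time was therefore detectable here, and the SEs leave room for one.

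Markers of muscle and of other cell types also changed from d0 to d8 in WT, beside Cdh13. Of the 10 muscle lineage markers 4 rose in WT and none fell, beside 12.4% of all genes called, with Myog (log2 fold change 3.80, SE 0.56, adjusted p = 0.0143) the first by adjusted p, and 6 rose in AMPK-KO and none fell, beside 9.76%. Their summed level in WT went from 1961 and 2642 TPM to 6488 and 8473. Of the 10 fibroblast and mesenchymal genes 9 were tested, and 4 rose in WT d8 against d0 while none fell, with Dcn (log2 fold change 5.48, SE 0.62, adjusted p = 0.0143) and Lum (5.69, SE 0.93, adjusted p = 0.0156) the first by adjusted p; in AMPK-KO 2 rose and none fell. The summed level of the list was 2307 and 1249 TPM in WT d0 and 4300 and 6385 in WT d8, led by Col3a1, and Thy1 was at 0 counts in these 4 libraries. The 2 WT d0 libraries stood apart in the same direction, since replicate 1 had the higher Cdh11, the higher Cdh13 and the higher sum. Between the WT d8 libraries replicate 1 had the lower sum and the lower Cdh11, but the higher Cdh13 (453 against 414 CPM). In AMPK-KO the library with the higher sum had the lower Cdh13 on both days. The part of such cells in these values was not tested, and fewer cells of a type cannot be told apart from less RNA per cell in bulk samples. Of 4 tested neural and glial markers 1 passed in WT, Ncam1, which muscle cells also express (1.67, SE 0.37, adjusted p = 0.0318); S100b was at 3.58, Tubb3 at -1.17 and Nefl at -4.39 on the log2 scale, and DESeq2 called all 4. The endothelial list was at 0.787 to 8.84 TPM in sum in the 16 libraries. The epithelial list summed to 29.8 and 103.7 TPM in WT d0, led by Krt19 at 25.2 and 92.2, and to 15.8 and 14.1 in WT d8, and Krt19 fell (log2 fold change -2.62, SE 0.59, adjusted p = 0.0332), while Epcam had no more than 5 counts in any of the 16 libraries. Des was the most abundant muscle marker in WT, at 1140 and 1615 TPM at d0.

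The remaining cadherins were near the limit of detection. Cdh1 (E-cadherin, the main cadherin of epithelia) had 30 and 8 counts in WT d0, 6 and 4 in AMPK-KO d0, 23 and 34 in WT d8 and 13 and 1 in AMPK-KO d8, and 0 to 8 in the TET2 table. Its d8 against d0 change did not pass in WT (log2 fold change 0.60, SE 0.88, adjusted p = 0.688), and no test is given in AMPK-KO, where its counts are too few. Cdh3 (P-cadherin) had 1 to 7 counts in WT and AMPK-KO libraries and 0 or 1 in the TET2 table. Cdh10, a cadherin of the nervous system, reached 14 counts in WT d8 replicate 2 and was at 8 and 23 counts in TET2-WT clone 1, while the other 6 libraries of that table had 0 to 2. Cdh6 (K-cadherin, of kidney) had 0 to 5 counts. Cdh4 (R-cadherin, of retina) had 0 counts in all 16 libraries, which allows a level of up to 0.0794 to 0.165 CPM depending on the library. Cdh1, Cdh3, Cdh6 and Cdh10 were at most at 1.28 TPM in any library.

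The TET2 table asked whether a glutamate at the AMPK site of TET2 changes expression in cells that lack AMPK. Cdh15 was at 143, 172, 137 and 115 CPM in the TET2-WT libraries, at 431 and 496 in TET2-S97E clone 1 and at 134 and 214 in TET2-S97E clone 2. Clone 1 stood far above all other libraries, and clone 2 overlapped TET2-WT. The clone 1 libraries also stood apart in make-up, with 2.95% and 3.72% of counts in the top gene, against 1.12% to 2.12% in the others. Mitochondrial counts were 2.03% to 2.29% in TET2-S97E and 1.00% to 2.14% in TET2-WT. The part of this in the cadherin values was not tested. Over the genotypes the log2 fold change of Cdh15 was 1.17 (SE 0.37, adjusted p = 0.0898). This p treats libraries of 1 clone as independent. With counts summed per clone the adjusted p was 0.491, and over all alternatives it ranged from 0.00209 to 0.563.

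Cdh2 was at 146, 134, 96.5 and 85.6 CPM in TET2-WT, at 256 and 176 in TET2-S97E clone 1 and at 168 and 155 in TET2-S97E clone 2. All 4 TET2-S97E libraries stood above all 4 TET2-WT libraries, with a log2 fold change of 0.71 (SE 0.22) and an adjusted p of 0.0817, which missed the threshold (0.516 with counts summed per clone). Cdh13 was at 142, 144, 136 and 126 CPM in TET2-WT, at 278 and 245 in TET2-S97E clone 1 and at 125 and 124 in clone 2, with a log2 fold change of 0.50 (SE 0.26, adjusted p = 0.296). Clone 2 was at or under the TET2-WT range. In edgeR 0 of the 3 tested cadherins passed, with 2 at an unadjusted p under 0.05, where 6.98% of the 13433 tested genes were called, and DESeq2 called Cdh15 (adjusted p = 0.0105) and Cdh2 (0.0212).

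The genotype values depended on the clone. Without TET2-S97E clone 2 the log2 fold change was 1.71 for Cdh15 (adjusted p = 0.00209) and 0.93 for Cdh13 (0.00885), and both passed. Without TET2-S97E clone 1 it was 0.27 for Cdh15 (0.563) and -0.15 for Cdh13 (0.627). For Cdh2 it was 1.05 without TET2-WT clone 1 (0.0812), 0.43 without TET2-WT clone 2 (0.276), 0.47 without TET2-S97E clone 1 (0.301) and 0.91 without TET2-S97E clone 2 (0.0603). Tested directly, TET2-S97E clone 2 was below clone 1 in Cdh15 (log2 fold change -1.41, SE 0.24, adjusted p = 0.00929) and Cdh13 (-1.07, SE 0.15, adjusted p = 0.00383), and Cdh2 did not pass (-0.42, SE 0.20, adjusted p = 0.280). These were 2 of 3 tested cadherins where 6.17% of 14459 genes were called, and both calls held when any 1 of these 4 libraries was left out. Between the TET2-WT clones 0 of the 3 passed in edgeR and 0 in DESeq2, with 1 at an unadjusted p under 0.05, where 0.858% of genes were called, and Cdh2 was the furthest apart (-0.62, SE 0.20, adjusted p = 0.150). The clone tests rest on repeat libraries of single clones.

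**Figure D3:**
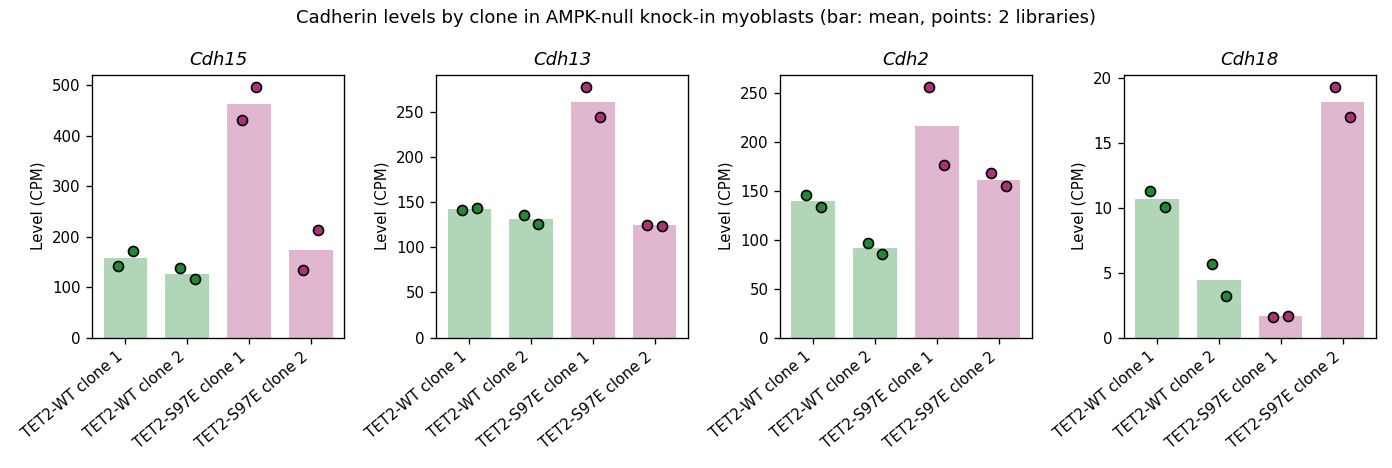
Level in CPM of Cdh15, Cdh13, Cdh2 and Cdh18 in the 4 clones of the TET2 table, with bars at the mean and a point for each of the 2 libraries. TET2-S97E clone 1 is the highest in Cdh15 and Cdh13 and the lowest in Cdh18.

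Muscle lineage markers were also lower in TET2-S97E clone 2 than in clone 1. Of the 10 listed genes, all tested, 4 were lower and none was higher, beside 6.17% of all genes. Myod1, the myoblast transcription factor, had 2923 and 4442 counts in clone 1 and 545 and 892 in clone 2 (log2 fold change -2.36, SE 0.23, adjusted p = 0.00117), against 158, 393, 394 and 734 in the TET2-WT libraries. The summed level of the list was 4578 and 2970 TPM in clone 1, 1805 and 1091 in clone 2, and 985 to 1225 in the TET2-WT libraries, led by Des throughout. Between the TET2-WT clones 1 of the 10 was called in edgeR, Myod1, higher in clone 2 (1.32, SE 0.23, adjusted p = 0.0388), beside 0.858% of all genes. The median log2 fold change over the list was 1.70, and DESeq2 called 3. Cdh15 did not pass between these clones (-0.32, SE 0.23, adjusted p = 0.453). Over genotypes 7 of the 10 were higher in TET2-S97E and none lower, beside 6.98% of all genes, with libraries of 1 clone treated as independent; 1 of these 7 calls was kept with clone as a random effect and 0 with counts summed per clone (adjusted p = 0.277 to 0.424). Some markers of other cell types differed between the TET2-S97E clones. Of 9 tested fibroblast and mesenchymal markers 2 were called, with a median of 0.07 over the list: Dcn (log2 fold change 1.92, SE 0.27, adjusted p = 0.00402) and Lum (3.51, SE 0.56, adjusted p = 0.00771) were higher in clone 2 than in clone 1. Of 5 tested neural and glial markers 2 were called and higher in clone 2, Nefl (2.94, SE 0.62, adjusted p = 0.0256) and Tubb3 (2.78, SE 0.64, adjusted p = 0.0359) and of 3 tested epithelial markers 1 was called, Ocln, lower in clone 2 (-2.68, SE 0.55, adjusted p = 0.0236), where Krt19 (1.10) and Krt8 (0.85) had positive log2 fold changes that did not pass. Between the TET2-WT clones 3 of the 9 fibroblast and mesenchymal markers were called, all higher in clone 2, with a median of 1.35 over the list. They were Postn (log2 fold change 3.69), Col1a1 (2.91) and Lum (2.88). Of 3 tested epithelial markers Ocln was called there, lower in clone 2 (-2.96). Over genotypes Krt19 (-3.54, SE 0.52, adjusted p = 0.00783) and the endothelial Tek (-1.93, SE 0.44, adjusted p = 0.0326) were lower in TET2-S97E. With clone as a random effect Krt19 kept its call (0.0330) and Tek lost it (0.217), and neither passed with counts summed per clone. The part of these markers in the cadherin values was not tested.

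**Figure D4:**
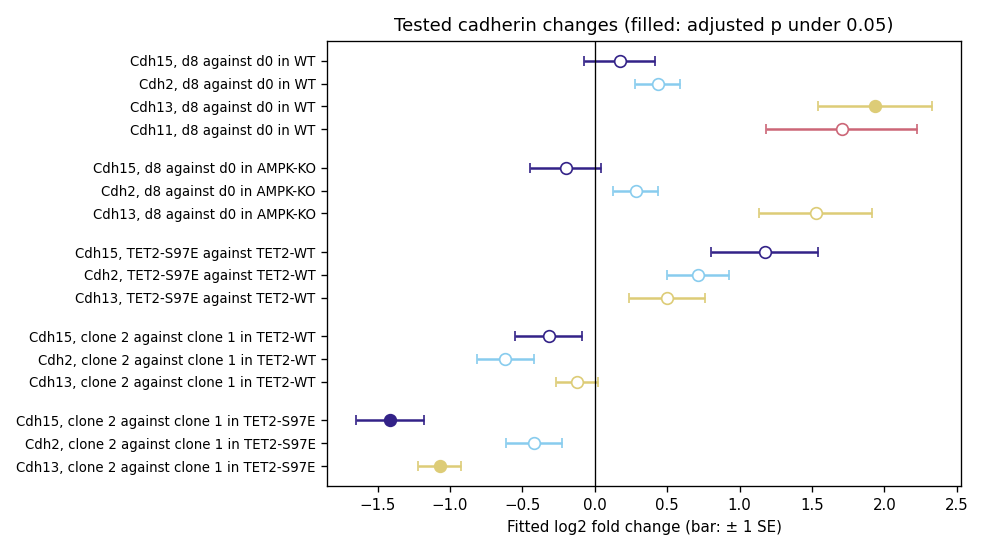
Fitted log2 fold changes of the abundant cadherins with 1 SE to each side, for the comparisons that the choice of the set did not use. Filled points passed an adjusted p of 0.05 and are Cdh13 in WT d8 against d0 and Cdh13 and Cdh15 between the TET2-S97E clones.

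Among 14 other classical and related cadherins, 4 were tested in WT and AMPK-KO cells and 5 in the TET2 table. Cdh18, a type II cadherin, was the most abundant of these in WT, at 38.6 and 37.0 CPM in d0 and 27.8 and 27.5 in d8. It was lower in AMPK-KO d0, at 10.5 and 17.2 CPM (log2 fold change -1.45, SE 0.25, adjusted p = 0.0312), and in AMPK-KO d8, at 12.4 and 11.4 (-1.22, SE 0.25, adjusted p = 0.0407). In TET2-S97E it was at 1.61 and 1.68 CPM in clone 1 and at 19.3 and 17.0 in clone 2, an 11.0-fold difference (log2 fold change 3.46, SE 0.31, adjusted p = 0.000827) and opposite in direction to Cdh15 and Cdh13. The TET2-WT clones lay between, at 11.3 and 10.1 CPM in clone 1 and 5.68 and 3.23 in clone 2, with an adjusted p of 0.0816. Cdh23, a cadherin of hair cell tip links, was lower in AMPK-KO d8 (log2 fold change -1.90, SE 0.40, adjusted p = 0.0433) and rose in WT from 3.04 and 1.90 CPM to 7.60 and 6.75 (adjusted p = 0.0496). Cdh5, the endothelial VE-cadherin, had 14 and 43 counts in TET2-S97E clone 1 and 0 and 1 in clone 2. With clone 2 at the limit of detection its test is not read, and its call was lost in 3 of the fits with 1 library left out. Cdh24 passed in no comparison in edgeR.

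Of 9 desmosomal cadherins 1 was tested. Dsg3, a desmoglein of stratified epithelia, had 9 and 3 counts in WT d0, 73 and 48 in WT d8 and 1 and 0 in AMPK-KO d8. It passed the filter through the WT d8 libraries, so its passing the test is no support for a difference and is not read here. The summed level of the 9 desmosomal genes was at most 2.68 TPM in any library.

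**Figure D5:**
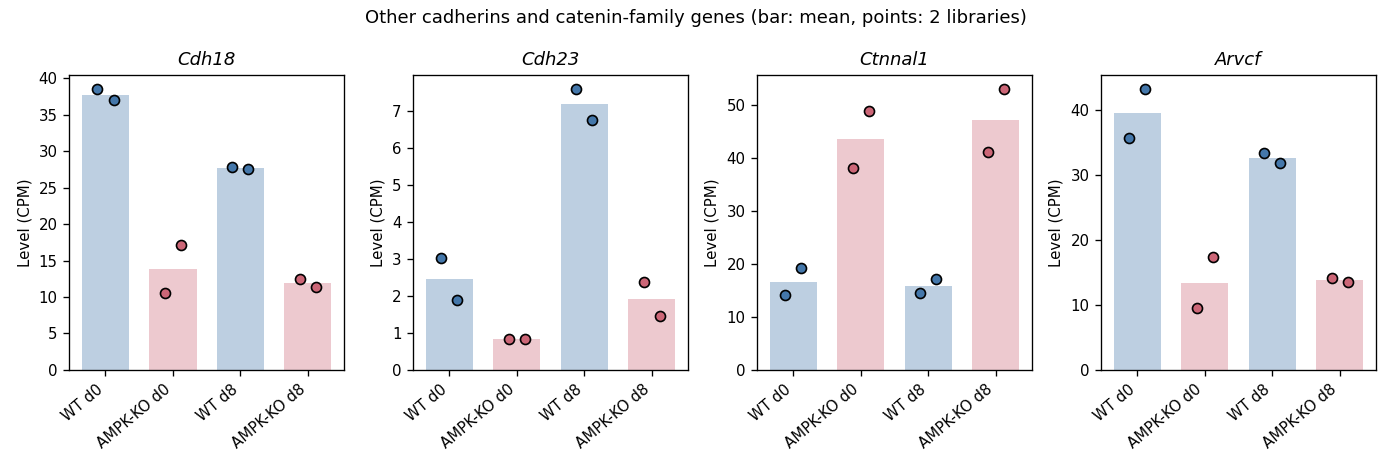
Level in CPM of Cdh18, Cdh23, Ctnnal1 and Arvcf by genotype and day, with bars at the mean and a point for each of the 2 libraries. Ctnnal1 is higher and Arvcf and Cdh18 are lower in AMPK-KO than in WT on both days, and the d8 difference of Arvcf did not pass.

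Of 14 listed genes for the cytoplasmic partners of cadherins 11 were tested. In AMPK-KO cells 1 was higher and 1 lower than in WT at d0 (3.52% of all tested genes were called) and again at d8 (5.35%), with median log2 fold changes of -0.24 and -0.02 beside -0.0010 and 0.04 over all tested genes. Ctnnal1 (alpha-catulin, a relative of alpha-catenin) was at 14.1 and 19.2 CPM in WT d0 and at 38.2 and 49.0 in AMPK-KO d0 (log2 fold change 1.39, SE 0.25, adjusted p = 0.0320), and it was higher at d8 too (1.57, SE 0.25, adjusted p = 0.0181). Arvcf, of the p120-catenin family, was at 35.7 and 43.2 CPM in WT d0 and at 9.52 and 17.3 in AMPK-KO d0 (-1.55, SE 0.29, adjusted p = 0.0370). Its d8 difference did not pass (-1.24, SE 0.29, adjusted p = 0.0569). Pkp4, of the same family, was lower in AMPK-KO d8 (-1.24, SE 0.25, adjusted p = 0.0363). Ctnna1 and Ctnnb1, the alpha-catenin and beta-catenin genes, were the most abundant. Ctnnb1 was at 585 and 530 CPM in WT d0 and at 483 and 585 in AMPK-KO d0, so the groups overlapped (-0.06, SE 0.17, adjusted p = 0.884). With time 0 of the 11 passed in WT (2 at an unadjusted p under 0.05, 2 called by DESeq2), beside 12.4% of all genes, and 0 in AMPK-KO (4 and 1), beside 9.76%. In TET2-S97E against TET2-WT 1 of the 11 passed in edgeR, Jup (plakoglobin), beside 6.98% of all genes called. At an unadjusted p under 0.05 there were 6, and DESeq2 called 3. Jup was at 168, 177, 122 and 177 CPM in TET2-WT and 261, 297, 243 and 281 in TET2-S97E (log2 fold change 0.75, SE 0.15, adjusted p = 0.0207). Every TET2-S97E library stood above every TET2-WT library. Jup did not pass with clone as a random effect (adjusted p = 0.0848) or with counts summed per clone (0.346).

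Nectins and nectin-like genes encode immunoglobulin-type adhesion proteins that assemble junctions beside the cadherins. Of 9 listed genes 6 were tested. Cadm4 was at 51.9 and 73.2 CPM in WT d0 and at 27.5 and 29.2 in AMPK-KO d0 (log2 fold change -1.14, SE 0.22, adjusted p = 0.0422), and it fell with time in WT to 30.7 and 32.7 (adjusted p = 0.0342). At d8 0 of the 6 passed in AMPK-KO against WT in edgeR, beside 5.35% of all genes, 0 in DESeq2 and 0 at an unadjusted p under 0.05. In TET2-S97E against TET2-WT Nectin1 was lower (-0.74, SE 0.17, adjusted p = 0.0326), but not with clone as a random effect (0.116) or counts summed per clone (0.396). Cadm1 had 0 and 2 counts in TET2-S97E clone 1 and 97 and 332 in clone 2, while the TET2-WT libraries held 1383 to 2491. With clone 1 at the limit of detection its test between these clones is not read. Cadm4 (-1.17, adjusted p = 0.0296) and Pvr (-0.86, adjusted p = 0.0362) were lower in clone 2.

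Proteases that cleave or mature cadherins were given by 15 genes, 13 of them tested in the first table. Mmp3 (stromelysin-1) had 30 and 54 counts in WT d0 against 1 and 0 in AMPK-KO d0, and 714 and 333 in WT d8 against 7 and 3 in AMPK-KO d8. Pcsk6, a proprotein convertase, had 239 and 177 counts in WT d8 and 0 and 0 in AMPK-KO d8. Both passed the filter through the WT libraries, like Dsg3, so their tests between the genotypes are not read. In edgeR no other protease passed in that comparison on either day, beside 3.52% (d0) and 5.35% (d8) of all genes. Of all 13 tested, DESeq2 called 2 at d0 and 3 at d8, and 3 were at an unadjusted p under 0.05 on each day. With time in WT, where 12.4% of all genes were called, Mmp3 (log2 fold change 3.65, SE 0.62, adjusted p = 0.0169) and Psen2, a presenilin of the gamma-secretase (1.38, SE 0.36, adjusted p = 0.0498), rose. In TET2-S97E Adam12, of myoblast fusion, was higher (adjusted p = 0.0260) and Adam15 lower (-0.71, SE 0.16, adjusted p = 0.0285). With clone as a random effect the adjusted p was 0.0503 and 0.114, and with counts summed per clone 0.379 and 0.347, so both calls were lost.

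Transcription factors known to switch cadherin expression in epithelial cells were given by 12 genes, 5 of them tested. In AMPK-KO against WT 0 of the 5 passed on either day in edgeR, beside 3.52% (d0) and 5.35% (d8) of all genes, with 3 at an unadjusted p under 0.05 on each day and 2 (d0) and 1 (d8) called by DESeq2. Snai2 (Slug) was at 61.8 and 58.8 CPM in WT d0 and at 23.3 and 21.9 in AMPK-KO d0. Zeb1 rose in WT from 97.4 and 79.8 CPM to 163 and 178 (log2 fold change 0.95, SE 0.16, adjusted p = 0.0165), and its change in AMPK-KO did not pass (0.55, SE 0.16, adjusted p = 0.0732). The difference between these changes was -0.40 (SE 0.22, adjusted p = 1.00). Twist2 was lower in TET2-S97E (-1.05, SE 0.25, adjusted p = 0.0391), at 7.03 to 15.7 CPM against 18.9 to 25.0, a call lost with clone as a random effect (0.0877) and with counts summed per clone (0.402).

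These adhesion lists held 28 calls, 2 of them of Dsg3. Of the 28, 25 missed the threshold in at least 1 edgeR fit with 1 library left out. None of the 28 changed sign under any alternative. Under every alternative run 3 held: Mmp3 in AMPK-KO against WT at d8, and Cadm1 and Cdh18 between the TET2-S97E clones. For Mmp3 and Cadm1 the limits given above apply, and their tests are not read. The losses came with every library: of 13 calls that use WT d8, 12 were lost without replicate 1 and 12 without replicate 2, and of 11 that use WT d0, 4 were lost without replicate 1 and 10 without replicate 2. All 5 that use AMPK-KO d0 were lost without either library, and of 7 that use AMPK-KO d8, 5 and 6 were lost. Among the TET2 clones, 4 to 6 of 10 were lost without a TET2-S97E library and 2 to 4 of 5 without a TET2-WT library.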

How the data were processed

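The authors aligned paired-end reads of rRNA-depleted RNA, trimmed with Trim Galore 0.4.5, to GRCm38 with STAR 2.5.3a and counted them per gene with featureCounts 1.5.3 and GENCODE M12; strand and multi-mapping settings are not given in the sources used here. The deposited values are raw counts, 1 table for WT and AMPK-KO and 1 for the TET2 clones, 49585 genes each, of which 49326 matched a GENCODE M21 name. From these, edgeR 4.0.16 (TMM, filterByExpr, quasi-likelihood test, Benjamini-Hochberg) was fitted on each whole table, with the 4 groups of a table sharing 1 estimate of spread, except TET2-S97E against TET2-WT, fitted by genotype. The procedure was tested on simulated data. The members, lists and tests were chosen with earlier results of these data known. List genes were named if called, at most 3 a list and comparison by adjusted p, otherwise by highest TPM. A figure legend of the paper that covers its RNA-seq tracks mentions independent AMPK-KO lines, so the AMPK-KO replicates may be separate lines. Otherwise libraries were not stated to be separate cultures, so p-values may measure technical spread only. Alternatives were DESeq2 1.42.0 (test and size factors), no filter, a replicate block, only the groups compared, limma-voom 3.58.1 with clones, counts summed per clone, and leaving out libraries or clones.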

Additional observations from a re-analysis of the deposited data

How the results depend on the processing

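Of the tested cadherin log2 fold changes, 189 alternative values kept their direction and side of the threshold, 11 gained a call, 3 lost it and 7 reversed; of the untested ones in AMPK-KO against WT, 78 moved by less than the spread between replicates and 11 by more. Cadherins called in WT d8 against d0 (1) were 2 with DESeq2 or no filter and 0 to 2 with a library left out; in AMPK-KO (0) 1 with DESeq2 or no filter and 0 to 1; in TET2-S97E against TET2-WT (0) 2 with DESeq2, 2 without TET2-S97E clone 2 and 0 to 1 with a library left out. Reversals came with libraries left out: Cdh1 ranged from -0.0015 to 1.69 and Cdh15 from -0.088 to 0.48 in WT d8 against d0, Cdh15 from -0.47 to 0.019 in AMPK-KO, and Cdh13 from -0.96 to 0.011 and Cdh2 from -0.32 to 0.010 in the difference of changes. Without TET2-S97E clone 1, Cdh13 in TET2-S97E against TET2-WT was at -0.15. Of 53 calls of marker genes 47 missed the threshold in at least 1 alternative.

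Genes called in AMPK-KO against WT were, at d0 (505), 1378 with DESeq2, 2026 with no filter, 335 with only the 2 groups and 17 to 437 with a library left out, and at d8 (766) 1656, 2503 and 107 to 552. For d8 against d0 they were 2754, 3293 and 0 to 2260 in WT (1771) and 2544, 3039, 788 with only the 2 groups and 0 to 923 in AMPK-KO (1398); the difference of changes gave 60, 449 and 0 to 6. TET2-S97E against TET2-WT (938) gave 1825 with DESeq2, 166 with limma-voom, 0 with counts summed per clone (1575 at an unadjusted p under 0.05), 183 without TET2-WT clone 1, 625 without TET2-WT clone 2 and 304 to 1092. Clone 2 against clone 1 gave 894, 1627 and 0 to 140 in TET2-WT (124) and 1383, 1680 and 488 to 580 in TET2-S97E (892). With a replicate block these were 677 and 1540; it changed no cadherin's call. The labels do not say that equal numbers mark a shared culture or batch; the deviations of same-numbered libraries correlated at 0.12 to 0.32 among WT and AMPK-KO groups and at -0.02 to 0.51 among TET2 clones. The cause of these shifts was not tested. With 2 libraries a group, lone libraries were assumed to vary like the others, and changes of cadherins under 10 counts were beyond reach.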
